A study of Rattus norvegicus with 61 samples.

Results

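The 100 transcripts described here were the ones with the highest mean level in rat spleen among those kept below 2 CPM in every sorted immune cell type. CPM is the share of a sample's summed values held by a transcript, times 1000000. The members were chosen by the measured group means of all 31196 transcripts: a mean under 2 CPM in each of the 6 sorted types, a mean under 1 CPM over the 15 livers and a spleen mean above that of whole blood cells. Of all transcripts, 17112 were under the first limit, 14916 of these under the second, and 3567 met the whole rule. The 100 with the highest spleen mean are called S1 to S100 in that order, since only Ensembl transcript identifiers were given and none of them was found among the 47357 genes of the RefSeq table (GRCr8), so that no gene name, marker list or sequence could be used.

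All samples came from male wild-type Sprague-Dawley rats aged 6 weeks, and all were bulk RNA sequencing libraries. NK cells, B cells and both CD4 and CD8 T cells (CD45+ and CD11b-) were sorted from spleen, and monocytes and neutrophils (CD45+ and CD11b+) from blood, with 6 samples of each type from untreated rats. Spleen and whole blood cells of untreated rats (5 samples each) were cell suspensions in which red cells had been lysed, and the spleen had been pressed through a nylon mesh, so these samples hold the cells that passed the mesh. Livers were perfused and taken 24 h after gavage of 0.5% methylcellulose (Ctrl), acetaminophen at 3 g/kg (APAP) or 4,4'-methylene dianiline at 300 mg/kg (MDA), with 5 livers each. Sample totals ran from 3429971 (a neutrophil sample) to 14146402 estimated counts. The labels number the samples of a group and do not say that each came from its own rat, so a p-value measures only the spread between these samples.

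The spleen filters blood and hosts immune responses. Its white pulp holds B cell follicles and T cell zones, and its red pulp holds macrophages that clear aged red cells, together with sinus endothelium, plasma cells and, in rodents, blood-forming cells. Deconvolution estimates cell shares in a tissue from the profiles of sorted cells, so a transcript of spleen cells that were not sorted has no reference profile. The question here is how much of the spleen profile lies in transcripts that the sorted profiles lack.

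Among the sorted libraries, 3 stood apart from their labels. Over 15254 transcripts, replicate 5 of the CD4 T, CD8 T and NK cells had median correlations of 0.96, 0.959 and 0.964 with their own type, but of 0.975, 0.976 and 0.973 with B cells (on log2(CPM + 1), as a description). Another 4 T cell libraries were as close or slightly closer to the other T cell type than to their own. Results that rest on the sorted cells are therefore given with and without the 3 replicate 5 libraries.

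The label "missing from sorted cell types" did not hold for these transcripts. None of the 100 was listed at 0 in all 36 sorted samples, and a member was above 0 in 1 to 36 of them (median 32). The highest sorted mean lay between 0.5 and 1.998 CPM with a median of 1.638 CPM, that is, mostly just under the limit. It was at least 1 CPM for 92 members and at least 1.5 CPM for 64, and 94 members reached 2 CPM in at least 1 sorted sample. They are low-level spleen transcripts also detected in sorted cells: spleen means ran from 4.393 CPM (S1) to 1.489 CPM (S100) with a median of 1.759 CPM, and 10622 transcripts of the table had a higher spleen mean than S1.

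As the limits fix, the members held little of the spleen profile. Their summed level was 189.3 ± 15.46 CPM in the spleen (SD, n = 5), or 0.01893% of the total, and all 3567 transcripts meeting the rule held 0.1084%. At the end of the list, S99 and S100 had spleen means of 1.492 and 1.489 CPM, and the first 2 transcripts outside it had 1.487 and 1.479 CPM, so the end of the list marks no gap in level.

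**Figure D1:**
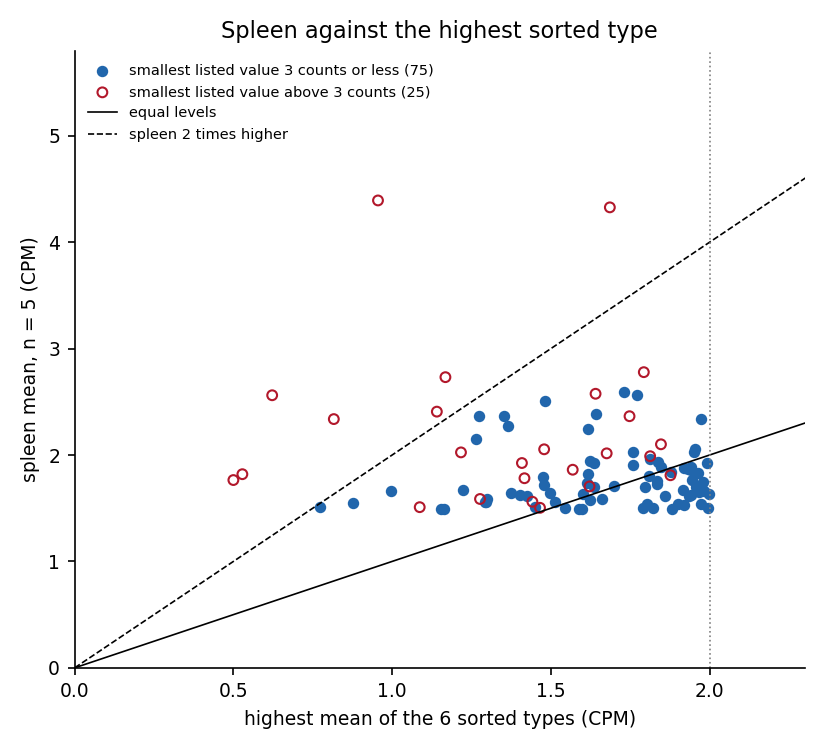
Spleen mean (n = 5, CPM) of each of the 100 transcripts against the highest of its 6 sorted means (CPM), with open circles for the 25 transcripts whose smallest listed value is above 3 estimated counts. Of the points, 65 lie above the line of equal levels, many of them close to it and to the limit of 2 CPM (dotted), and the 8 points above the dashed line (spleen 2 times higher) are all open circles.

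The spleen mean exceeded the highest sorted mean for 65 members and was at or under it for 35. These values chose the members and are given without a test. The median ratio was 1.09 (range 0.752 to 4.597). The spleen mean was more than 1.5 times higher for 19 members, more than 2 times for 8 (S1, S2, S4, S7, S10, S16, S43 and S50) and more than 3 times for 4 of those (S1, S7, S43 and S50). Without the 3 replicate 5 libraries the same members gave 65 above the highest sorted mean and 9 above 2 times. The list itself kept 89 of its 100 members when chosen without those libraries.

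Sample by sample the spleen did not stand above the splenic sorted cells. No member had its lowest spleen above the highest of the 24 samples of splenic sorted types (0.757% of the 25365 transcripts above 0 in any sample did), and none had it above all 36 sorted samples (0.0276% of those transcripts). In 40 members the lowest spleen lay above all 12 blood sorted samples (13.9% of those transcripts), and in 34 above all 5 whole blood samples (16.4%). The rule ranks by spleen mean, caps the sorted means and asks for more in spleen than in whole blood. All of these counts therefore use values that chose the members. They are given as a description, and nothing is read from them.

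The highest-ranked members showed how differently the list was filled. S1 was listed at 0, 7.40, 0, 0 and 14.56 CPM in the 5 spleens. It was above 0 in 1 of the 36 sorted samples, at 5.73 CPM in replicate 5 of the CD4 T cells, so its place at the top rested on 2 spleens. S2 (ENSRNOT00000067894) was above 0 in every spleen, at 4.95, 3.33, 2.19, 6.68 and 4.49 CPM. Its sorted means were 1.69 CPM in NK cells, 1.41 in CD8 T cells, 1.22 in B cells and 0.731 in CD4 T cells, against 0.131 in monocytes and 0.0833 in neutrophils. The spleens of S2 overlapped its NK cells, whose highest sample was at 4.87 CPM.

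S3 was at 0.399, 5.17, 4.15, 2.64 and 1.54 CPM in the spleens. S4 was at 3.02, 0, 0, 4.38 and 6.26 CPM, and S6 at 5.07, 2.63, 0, 0 and 5.19 CPM. Both were at 0 in replicate 3 and in 1 further spleen. S5 (ENSRNOT00000014229) had 3.44, 3.35, 2.47, 2.32 and 1.37 CPM, and was the only one of the 10 highest with its highest sorted mean in monocytes (1.73 CPM). S7 was at 0, 0, 7.80, 2.63 and 2.38 CPM. S8 was the most even of the 10, at 2.60, 2.01, 3.46, 2.65 and 2.08 CPM (CV 22.7%). S9 was at 4.1, 3.29, 3.37, 1.76 and 0 CPM. S10 was at 12.04 CPM in replicate 4 and at 0 in the other 4 spleens.

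The deposited values began at a smallest value above 0 that was particular to each transcript. It is taken here as about 1 read, and what sets its size was not tested. Over 5312 transcripts with values above 0 in 4 to 25 samples, the 3 lowest values of a transcript had a median SD of 0.13 on the log2 scale, against an SD of 2.71 between transcripts. The members were above 0 in a median of 32 sorted samples alone, so many of them lie outside this check. For those the smallest value may be more than 1 read. For the members this smallest value ran from 0.252 estimated counts to 84.1 (S26), with a median of 1.47. It was above 3 for 25 members, for 7 of the 10 highest and for all 8 members with a spleen mean over 2 times the highest sorted mean. Expressed in multiples of it, the 5 spleens together held 1.22 (S26) to 490.1 (S12), with a median of 72.9, and 8 members were under 10.

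Members with a large smallest value were the unsteady ones. The members share a narrow range of low spleen means, so a large smallest value leaves few multiples of it over the 5 spleens. This contrast is therefore largely built in and is given as a description. The coefficient of variation (CV) over the 5 spleens had a median of 38.0% over all members (range 8.66% to 223.6%). It was 103% for the 25 members with a smallest value above 3 and 31.4% for the other 75. The 2531 transcripts with spleen means in the same range had a median of 26.3%, and all 13940 transcripts of at least 1 CPM had 11.7%. In all, 81 members were above 0 in all 5 spleens, 7 in 4, 4 in 3, 3 in 2 and 5 in only 1. Of the 19 at 0 in some spleen, 18 had a smallest value above 3. At the other end, S73 was at 1.85, 1.58, 1.56, 1.59 and 1.48 CPM (CV 8.71%) and S42 at 1.72, 1.72, 1.71, 2.17 and 1.82 CPM.

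**Figure D2:**
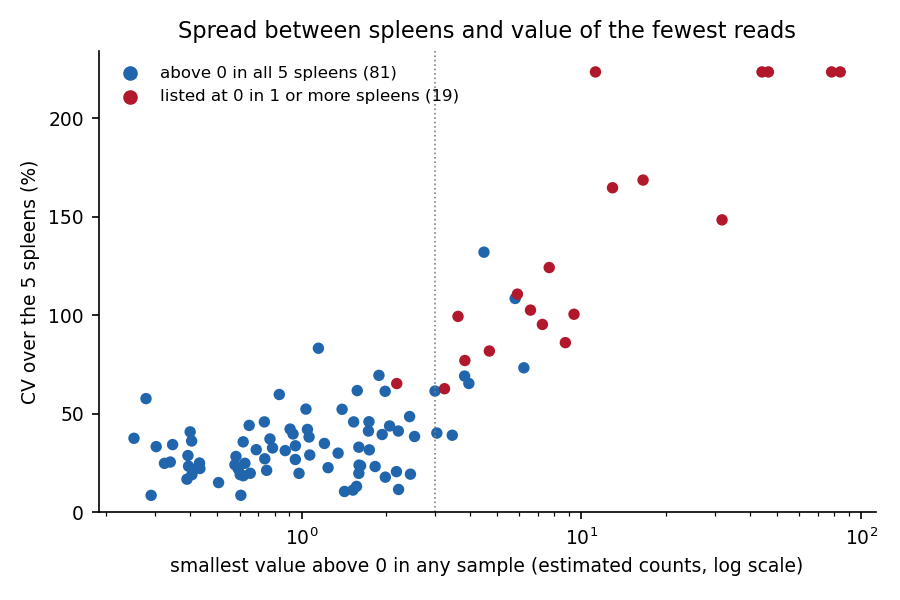
Coefficient of variation over the 5 spleens (%) of each of the 100 transcripts against the smallest value above 0 listed for it in any sample (estimated counts, log scale), red where it is at 0 in 1 or more spleens. To the left of the dotted line at 3 estimated counts lie 75 transcripts with a median of 31.4%, and to the right 25 with a median of 103%.

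The levels summed over the members describe the values that chose them, since the rule asks for a high spleen mean and low sorted, blood and liver means, and nothing is read from their order (all values in CPM, lowest to highest sample). The spleens lay at 170.9 to 211.7, above every other sample. The splenic sorted types followed, with NK cells at 114.2 to 163.9, B cells at 107.5 to 134.6, CD4 T cells at 103.9 to 146.1 and CD8 T cells at 86.6 to 135.1, and these 4 overlapped each other. Whole blood cells lay at 56.6 to 98.2, overlapping both monocytes (51.8 to 65.6) and neutrophils (49.2 to 61.1). Livers were at 21.0 to 39.2 (Ctrl), 35.4 to 50.4 (APAP) and 28.3 to 33.1 (MDA), and the highest APAP liver overlapped the neutrophils. The highest CD4 T, CD8 T and NK samples were all replicate 5, the libraries that stood closer to B cells, at 146.1, 135.1 and 163.9. With edgeR's TMM scaling the spleens lay at 143.7 to 186.6 and NK cells reached 137.0. With TMM the Ctrl livers lay at 45.7 to 73.0, overlapping monocytes (44.3 to 56.7) and neutrophils (54.3 to 76.0). They reached above the APAP livers (43.7 to 56.6), where in CPM they had reached below them. The APAP livers lay above the MDA livers without overlap in CPM and overlapped them with TMM (MDA 38.2 to 47.3). In such bulk samples, fewer cells of a type and less RNA per cell cannot be told apart.

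**Figure D3:**
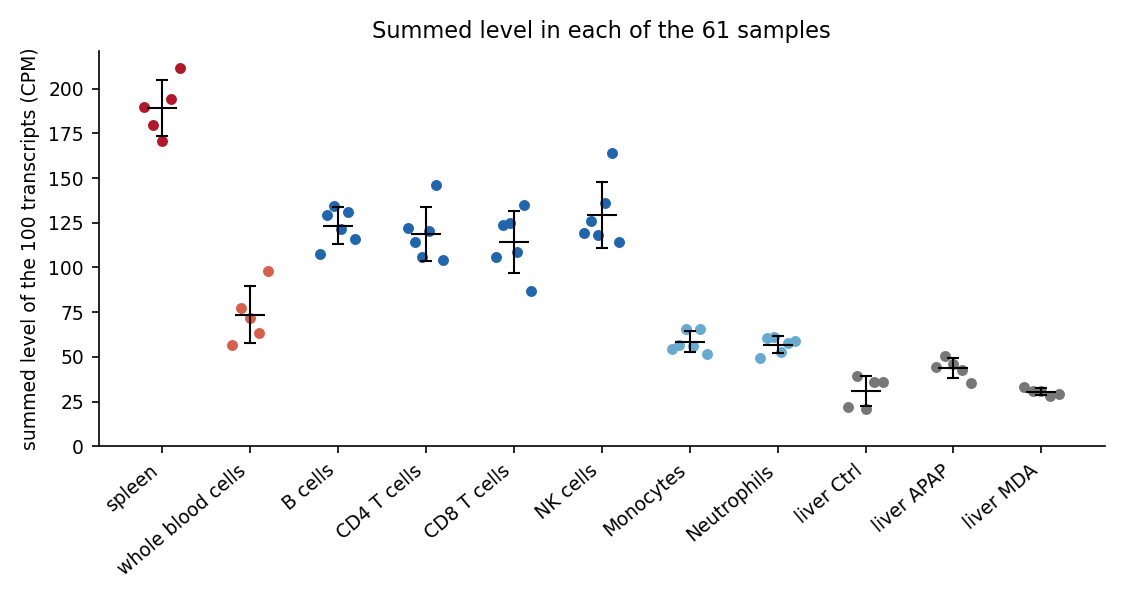
Summed level of the 100 transcripts (CPM) in each of the 61 samples by group, with the mean and SD as a bar. Spleens (170.9 to 211.7) lie above the splenic sorted types (dark blue, 86.6 to 163.9), and these lie above the blood sorted types (light blue, 49.2 to 65.6).

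The sorted type with the highest mean was counted for each member. It was NK cells for 36 members, CD4 T cells for 21, B cells for 21 and CD8 T cells for 13, so 91 peaked in a splenic type. It was monocytes for 7 and neutrophils for 2 (S58 and S91). Of the 6 sorted types 4 are splenic, and no such count was made over all transcripts, so nothing is read from these counts. The rule did not use differences between sorted types, but it kept transcripts high in spleen and low in blood, and the splenic types come from that organ. It thus favours members higher in splenic types and lower in blood types, and the counts below describe that direction only. Tissue of origin and cell type cannot be told apart for the blood types. The counts below stand beside those over all 18134 transcripts tested.

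Comparing the 4 splenic types with the 2 blood types, 58 of 100 members were higher in the splenic types and 5 lower (edgeR adjusted p under 0.05). Over all transcripts tested, 40.2% were higher and 31.5% lower, 71.7% in either direction. The median log2 difference was 1.27 over the members and 0.16 over all transcripts. Without the 3 replicate 5 libraries 99 members were tested, with 57 higher and 5 lower. The 5 with the largest fitted difference, S11, S19, S46, S31 and S77, were above 0 in all 24 splenic samples. In S11 the splenic samples ran from 0.182 to 3.01 CPM (median 1.1), and all 12 blood samples were listed at 0. Against a floor of 3 times the smallest value per sample this is at least 3.0-fold higher. S19 ran from 0.145 to 2.3 CPM (median 1.11) and was also at 0 in all 12, at least 1.82-fold higher. S46 ran from 0.354 to 4.11 CPM, S31 from 0.615 to 2.52 CPM and S77 from 0.317 to 2.68 CPM, while their highest blood samples were at 0.141, 0.199 and 0.123 CPM. In each of these 5 the lowest splenic sample lay above the highest blood sample.

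The 5 members lower in the splenic types moved little or rested on single samples. S25 (log2 difference -0.60, SE 0.20, edgeR adjusted p = 0.0068), S91 (-0.57, SE 0.18, edgeR adjusted p = 0.0045) and S52 (-0.47, SE 0.18, edgeR adjusted p = 0.019) were detected in all 36 samples, with overlapping groups. S25 averaged 1.95 CPM in monocytes and S91 averaged 1.82 CPM in neutrophils. S26 and S48 were above 0 in only 1 of 24 splenic and 2 of 12 blood samples, and no fold is given for them.

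Type by type, against the mean of the other 5, at most 1 member was lower in any of the 4 splenic types. The shares of members higher in B cells and NK cells lay above those of all transcripts. In CD4 T cells the share was above it with all libraries. It came close to the 21.8% of all transcripts without the 3 replicate 5 libraries (25 of 99) and without replicate 1 or replicate 4 (24 of 100 each). The share in CD8 T cells lay close to that of all transcripts, so nothing is read from either T cell type. B cells, which make antibody, had 41 higher and 0 lower (17.3% and 17.7% of all transcripts, 35.0% together). For the 0, edgeR at an unadjusted p under 0.05 called 47 members in either direction, and DESeq2 called 37 higher and 1 lower. CD4 T cells, the helper T cells, had 33 higher and 1 lower (21.8% and 18.6%, together 40.5%), the lower one being S68, at 0.784 CPM there against 1.05 to 1.6 CPM in the other types. CD8 T cells, which kill infected cells, had 27 higher and 1 lower (23.2% and 19.6%, together 42.8%), the lower one being S6, at 0 in all 6 samples. S6 was above 0 in only 12 of the 36 sorted samples. It lost this call without replicate 1, 4 or 6. The names S68 and S6 were picked after their values were seen. NK cells, innate killer cells, had 33 higher and 0 lower (18.8% and 16.6%, together 35.3%), with 40 members under an unadjusted p of 0.05 in edgeR, and DESeq2 called 31 higher and 0 lower. In all, 18 members were higher in all 4 splenic types, 8 in 3, 10 in 2, 18 in 1 and 46 in none.

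In the myeloid types of the blood, more members were lower than higher, a direction that the rule favours. Monocytes had 5 members higher and 42 lower (26.2% and 30.1% of all transcripts, together 56.2%), and neutrophils 6 higher and 32 lower (29.4% and 33.2%, together 62.5%). The share of members lower in neutrophils was close to that of all transcripts, so nothing is read from it. Of the higher members in monocytes, 2 rested on all 6 samples, S5 at 1.08 to 2.27 CPM (median 1.76; log2 difference 0.94, SE 0.29, edgeR adjusted p = 0.0066) and S25 at 1.49 to 2.83 CPM (median 1.83; log2 difference 0.67, SE 0.24, edgeR adjusted p = 0.017). In neutrophils S91 ran from 0.559 to 2.58 CPM (median 1.93; log2 difference 1.21, SE 0.21, edgeR adjusted p = 6e-06). S36 and S58 were also higher there, with log2 differences of 0.59 and 0.83. S5 and S36 were not particular to the myeloid types. S5 was also called higher in B cells (mean 1.58 CPM) and NK cells (1.63 CPM). S36 averaged 1.59 CPM in neutrophils and 1.85 CPM in B cells, where it was also called higher. Without the 3 replicate 5 libraries the counts of higher members were 39 in B cells, 25 in CD4 T cells, 26 in CD8 T cells, 27 in NK cells, 4 in monocytes and 8 in neutrophils, of 99 tested.

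The members with the largest fitted difference in a type were mostly carried by 1 sample. In B cells S48 was above 0 in replicate 1 alone (8.5 CPM), S10 in replicate 6 alone (6.48 CPM) and S76 in replicates 3 and 4 (3.97 and 1.71 CPM). In CD4 T cells S1 was above 0 in replicate 5 alone (5.73 CPM), S26 in replicate 4 alone (10.1 CPM) and S7 in 3 samples (0.888 to 1.84 CPM). In NK cells S10 and S76 rested on replicate 5 (6.85 and 7.66 CPM) and S22 on replicate 3 (8.87 CPM). The monocyte values of S16, S26 and S48 (4.9, 9.54 and 7.02 CPM) and the neutrophil values of S22, S26 and S48 (4.29, 7.75 and 8.45 CPM) were each 1 sample. These transcripts had smallest values of 7.67 to 84.1 estimated counts, and since 1 to 3 samples carried each of these values, no fold is given. Of the higher calls, those above 0 in at least 4 of the 6 samples numbered 38 in B cells, 30 in CD4 T cells, 27 in CD8 T cells, 28 in NK cells, 2 in monocytes and 3 in neutrophils.

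The leaders in CD8 T cells were different, being detected in all 6 samples. S31 ran from 0.761 to 2.1 CPM (edgeR adjusted p = 9.9e-07), S46 from 0.596 to 3.36 CPM (edgeR adjusted p = 1.9e-05) and S19 from 0.145 to 1.5 CPM (edgeR adjusted p = 1.2e-05). The mean of the other 5 types holds the blood types, where these were at or near 0. Their NK cell means (1.64, 1.81 and 1.26 CPM) were above their CD8 T cell means (1.31, 1.39 and 1.0 CPM), so they did not mark CD8 T cells among the splenic types.

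**Figure D4:**
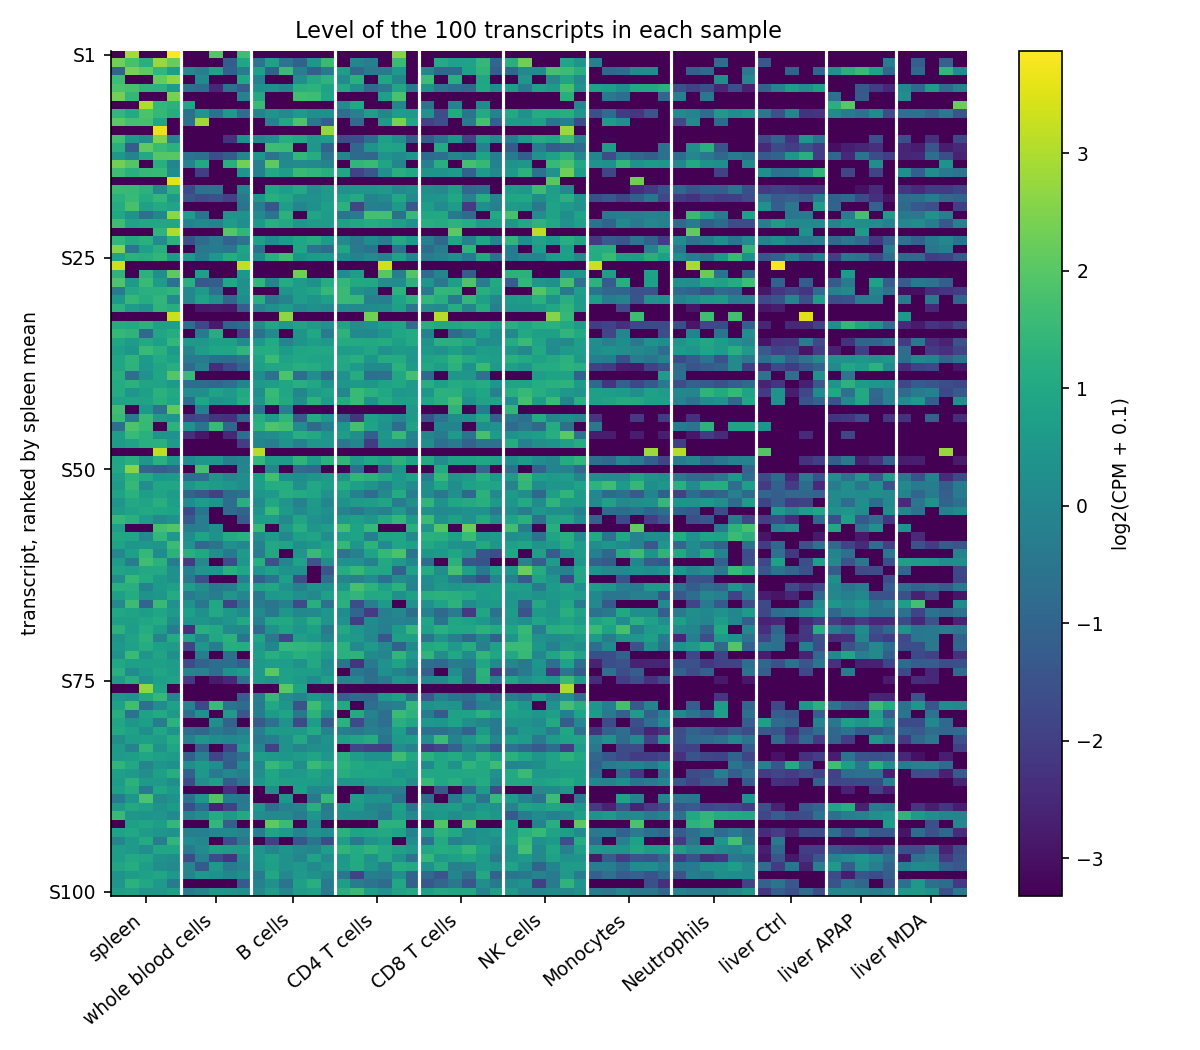
Level of the 100 transcripts (rows, ranked by spleen mean) in each of the 61 samples (columns, by group), as log2(CPM + 0.1). Most rows are filled through the spleen and the 4 splenic sorted types and fade in monocytes, neutrophils and livers, while rows that are dark with scattered bright cells, such as S1, S26 and S48, are transcripts above 0 in few samples.

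Whole blood cells, the other bulk profile of immune cells, had 54 members above 0 in all 5 samples and 6 in none. The rule required the spleen to be higher. The ratio of spleen to whole blood mean had a median of 2.609 over the members above 0 in blood. It was under 1.5 for 22 members and went down to 1.027.

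In the livers the members were near the detection limit, as the limit of 1 CPM on their mean fixes. Of the 100, 11 were at 0 in all 15 livers and 74 passed the filter of a mean of 0.1 CPM and were tested, while 26 were not. The differences between treatments were not used by the rule. Acetaminophen overdose kills hepatocytes around the central vein, and methylene dianiline injures bile duct epithelium.

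After APAP, 3 of the 74 members were higher than in Ctrl and 6 lower (edgeR adjusted p under 0.05). Of all 18427 transcripts tested 31.5% passed, 16.1% higher and 15.4% lower. This split depended on the scaling. With library totals alone 13 members were higher and 3 lower, beside 43.0% and 5.7% of all transcripts, and the median log2 difference of all transcripts moved from 0.06 to 0.73. Members named here kept their direction under both scalings. With only 3 members called lower by library totals, not all of the 6 lower ones kept their call.

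S40 (ENSRNOT00000072027) was at 0.06, 0.118, 0, 0.0542 and 0.285 CPM in Ctrl and at 1.21, 2.37, 1.4, 1.25 and 1.14 CPM after APAP. All APAP livers lay above all Ctrl livers (log2 difference 3.12, SE 0.57, edgeR adjusted p = 0.00066). S33 was at 0.0713, 0, 0.0767, 0.0861 and 0.168 CPM in Ctrl and at 1.1, 2.6, 1.73, 1.21 and 0.475 CPM after APAP, again without overlap (3.25, SE 0.63, edgeR adjusted p = 0.0011). S38 was at 0.0629, 0.205, 0.134, 0.259 and 0.393 CPM in Ctrl and at 0.996, 1.88, 1.52, 2.3 and 0.967 CPM after APAP, also without overlap (2.14, SE 0.66, edgeR adjusted p = 0.0221). S38 lost its call without APAP replicate 4 (1.89, edgeR adjusted p = 0.0615). The Ctrl means of S40, S33 and S38 lay below their floor of 0.256 CPM, so the sizes of these differences are fitted values. In the untreated immune cells these 3 had means of 1.31 to 1.99 CPM in the 4 splenic types and 0.133 to 0.422 CPM in monocytes and neutrophils.

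Among the members lower after APAP, S15 (ENSRNOT00000060121) was at 1.1, 0.539, 0.594, 1.17 and 2.47 CPM in Ctrl and at 0, 0.182, 0, 0.178 and 0 CPM after APAP, without overlap (log2 difference -4.42, SE 0.83, edgeR adjusted p = 0.00082). S5 was at 0.38, 0.817, 1.48, 1.06 and 1.6 CPM in Ctrl and at 0, 0, 0.292, 0.147 and 0.0748 CPM after APAP, without overlap (-3.87, SE 0.72, edgeR adjusted p = 0.00079). S73 was at 0.421, 0.245, 0.555, 0.283 and 0.612 CPM in Ctrl and at 0.108, 0, 0.056, 0.0579 and 0.172 CPM after APAP, without overlap (-2.78, SE 0.65, edgeR adjusted p = 0.0041). These 3 were lower in every APAP liver than in any Ctrl liver. Their APAP means lay below their floors (0.426, 0.266 and 0.266 CPM), so the sizes of these differences are fitted values. S23 was also lower (-1.68, SE 0.48, edgeR adjusted p = 0.0138).

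S11 and S13 were called with overlapping groups. S11 was above 0 in all 5 Ctrl livers (0.107 to 1.31 CPM) and in 1 APAP liver (0.237 CPM; edgeR adjusted p = 0.0457). It lost the call (edgeR adjusted p 0.0507 to 0.125) without any one of APAP replicates 1, 2, 3 and 5, Ctrl replicates 2, 4 and 5, or MDA replicates 1, 3 and 5. S13 ran from 0.141 to 2.22 CPM in Ctrl and from 0.0791 to 0.577 CPM after APAP (edgeR adjusted p = 0.0404). It lost the call (edgeR adjusted p 0.054 to 0.14) without any one of APAP replicates 1, 2, 4 and 5 or Ctrl replicates 3 and 4.

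After MDA, 1 of the 74 members was higher than in Ctrl and 2 were lower, beside 16.1% of all transcripts tested, 7.99% higher and 8.07% lower. With library totals alone 2 were higher and 2 lower, beside 31.6% and 3.38%. Without MDA replicate 1 only 1 member was called. The higher one, S91, was at 0.194, 0.34, 0.208, 0.234 and 0.538 CPM in Ctrl and at 2.46, 1.43, 1.08, 0.885 and 0.843 CPM after MDA, without overlap (log2 difference 1.62, SE 0.42, edgeR adjusted p = 0.0157). All its Ctrl livers lay below its floor of 0.623 CPM, so the size of this difference is a fitted value. S91 lost the call without MDA replicate 1 (1.26, edgeR adjusted p = 0.0592). After APAP S91 was at 0.52 to 1.27 CPM, not called against Ctrl (edgeR adjusted p = 0.128). Nor was it called between APAP and MDA (edgeR adjusted p = 0.202), so its rise is not read as particular to MDA. S91 is also one of the 2 members whose highest sorted mean was in neutrophils. The lower ones were S56 (edgeR adjusted p = 0.0258), at 0 in all 5 MDA livers and at 0 to 0.423 CPM in Ctrl, and S13 (edgeR adjusted p = 0.0379), at 0.0593 to 0.501 CPM after MDA. The Ctrl mean of S56 was below the floor of 3 times the smallest value, so no fold is given. S56 lost the call without Ctrl replicate 5 (edgeR adjusted p = 0.0562). S13 lost it (edgeR adjusted p 0.0506 to 0.127) without any one of Ctrl replicates 3 and 4 or MDA replicates 1, 2, 4 and 5.

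Set directly against MDA, APAP livers had 7 members higher and 3 lower, beside 24.3% of all transcripts, 12.1% higher and 12.2% lower. S33 and S38 were at 0.0434 to 0.177 and at 0 to 0.196 CPM in MDA livers, below every APAP liver (log2 differences 3.37, SE 0.62, edgeR adjusted p = 0.00099, and 3.78, SE 0.71, edgeR adjusted p = 0.0012). S90 was at 1.83, 2.18, 0.0591, 0.68 and 0.609 CPM after APAP and at 0 to 0.123 CPM after MDA, with 1 APAP liver inside the MDA range (3.71, SE 0.95, edgeR adjusted p = 0.0097). S56 was at 0.231, 1.56, 0.296, 0.495 and 0.111 CPM after APAP and at 0 in all MDA livers (edgeR adjusted p = 0.0075). Of the APAP livers 2 lay below the floor of 0.253 CPM and replicate 2 was far above the others, so no fold is given. S87 was above 0 in all APAP livers (0.184 to 0.753 CPM) and in 1 MDA liver (0.0618 CPM; edgeR adjusted p = 0.0388). It lost the call (edgeR adjusted p 0.0741 to 0.106) without any one of APAP replicate 5 or MDA replicates 1 to 4. S15 was at 0.343 to 1.13 CPM, S5 at 0.447 to 1.46 CPM and S73 at 0.234 to 0.485 CPM after MDA, each above every APAP liver (log2 differences -3.33, -2.94 and -1.93, edgeR adjusted p = 0.0073, 0.0069 and 0.0383). S73 lost this call (edgeR adjusted p 0.0526 to 0.0873) without any one of APAP replicates 1 to 4 or MDA replicates 1 to 4. The MDA means of S33, S38 and S90 and the APAP means of S15, S5 and S73 lay below their floors. The sizes of those differences are therefore fitted values.

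**Figure D5:**
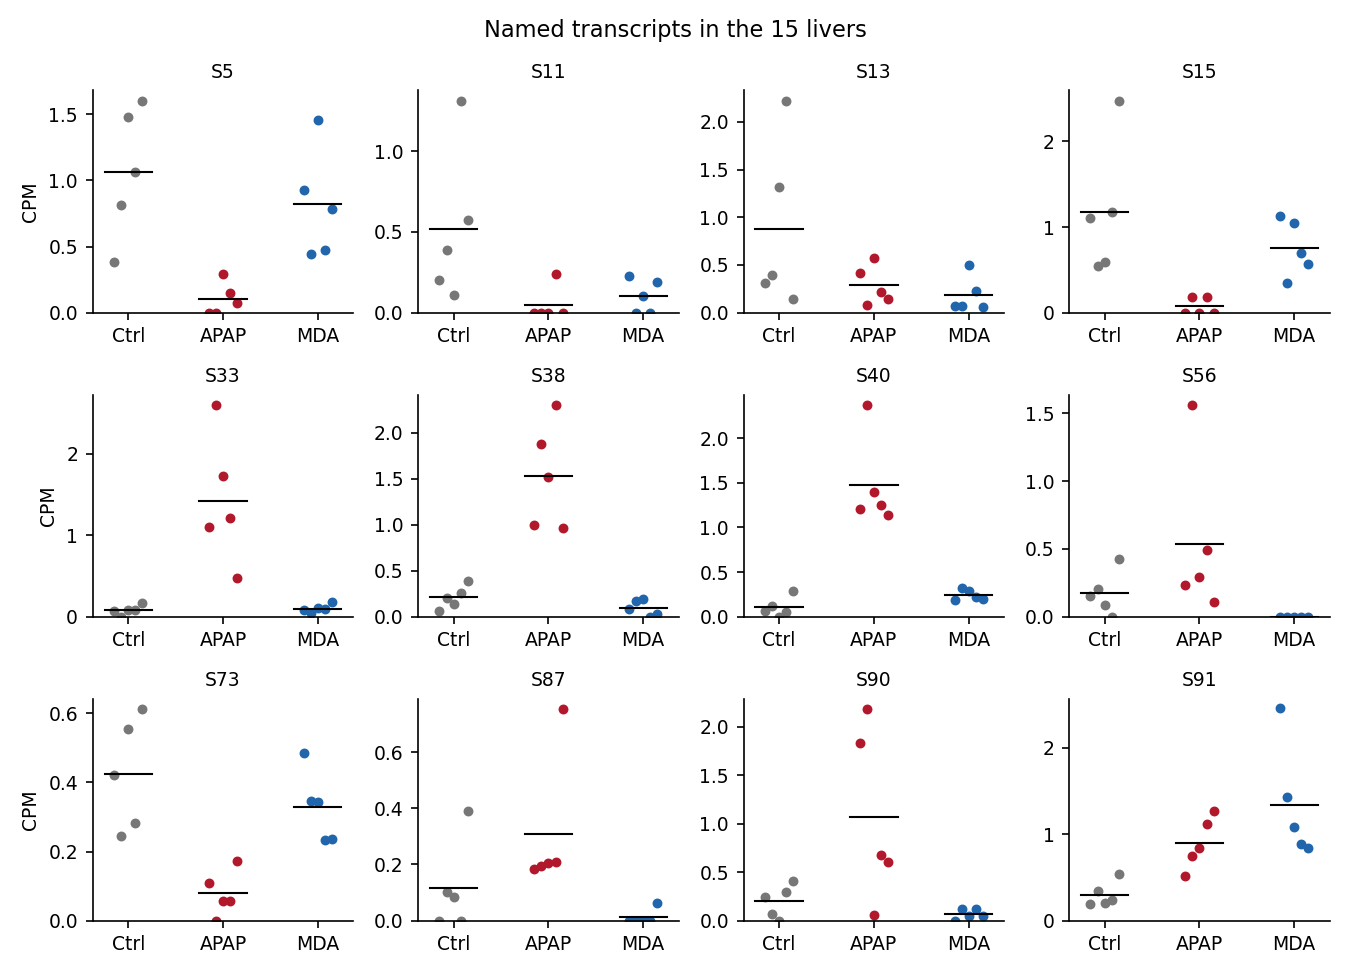
Level (CPM) of 12 of the transcripts named in the liver comparisons (S23 is not shown) in each of the 15 livers, with the group mean as a line. S33, S38 and S40 lie higher in all 5 APAP livers than in any Ctrl or MDA liver, S5, S15 and S73 lie lower in all 5 APAP livers than in any Ctrl or MDA liver, and S91 lies higher in all 5 MDA livers than in any Ctrl liver.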

How the data were processed

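RNA of sorted cells, spleen, whole blood cells and livers was sequenced in 61 samples, with groups taken from the labels. The authors quantified reads per transcript with Salmon 1.6.0 and tximport (R 4.1.3), and deposited 1 table (the submitters' processing notes name both Rnor_6.0 and mRatBN7.2). The paper names TPM, a unit scaled for transcript length, as the tximport output. TPM has the same total in every sample, but the totals here ran from 3429971 to 14146402. The values were therefore treated as estimated counts. The deposited estimated counts start at a smallest value that differs between transcripts, which is taken as about 1 read, and limits of 3 times it cover counting error only. On that reading, 1 read of a member entered as 0.252 to 84.1 estimated counts, depending on the transcript. The count models of edgeR and DESeq2 take each value as a number of reads. The effect of this on their p-values was not tested. All 61 columns matched a sample's labels, and 0 others were present. No 2 samples were identical.

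Values were rounded and tested with edgeR 4.0.16 (quasi-likelihood test, TMM, Benjamini-Hochberg) across every transcript averaging 0.1 CPM or more, in 1 fit of the 15 livers and 1 of the 36 sorted samples. Alternatives used DESeq2 1.42.0, limma 3.58.1 on log2(CPM + 0.5), library totals alone, other filters, unrounded values, a replicate block and samples left out. The tests were first checked on simulated whole counts. Changes were placed there only in transcripts more abundant than any member in the samples tested. That check therefore does not cover the level of the members. Named members are the 10 highest spleen means, those next to the limit, up to 5 called each way per liver contrast, up to 3 per sorted type, and up to 3 with a spleen apart by Dixon's test. The members and lists were chosen with earlier results of these data known.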

Additional observations from a re-analysis of the deposited data

Results flagged for a closer look

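In 15 members 1 spleen lay far from the other 4 by Dixon's 95% criterion. The apart spleen was high in 14 of them, and 9 had a smallest listed value above 3 estimated counts. The criterion flags about 1 in 20 groups of normally distributed values by chance, but 5 of the 15 were at 0 in 4 spleens. The members were also ranked by the mean of these same spleens, which favours a transcript with 1 very high spleen. Nothing is therefore read from the count or from its side. The 3 with the highest spleen mean were S10, at 12.04 CPM in spleen replicate 4 and 0 in the others, S16, at 11.69 CPM in spleen replicate 5 and 0 in the others, and S17, at 0.96 CPM in spleen replicate 4 against 2.36 to 2.83 CPM in the others. S10, S16, S26, S32 and S48 were at 0 in the other 4 spleens. For S10, S16, S26 and S48 the 5 spleens together held between 1.22 and 2.78 times the smallest listed value, and S32 held 9.01 times.

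The direct comparison of APAP with MDA livers in edgeR called 10 of the 74 members, beside 24.3% of all transcripts, and 8 are listed here. The log2 differences were 3.37 for S33, 3.41 for S87, 3.71 for S90, 3.78 for S38 and 5.38 for S56 (a fitted value that depends on the prior count, since every MDA liver was at 0), and -3.33 for S15, -2.94 for S5 and -1.93 for S73. The value of S87 is also only a fitted one, since every APAP liver but replicate 5 lay below its floor of 0.241 CPM. The other listed values are fitted ones too, since the mean of the lower group lay below its floor in each. S40 and S72, outside the 5 largest, were also higher after APAP. What moved with these differences was not tested, since no cell type markers could be named.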

How the results depend on the processing

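The make-up of the list moved with the settings. Chosen again, it kept 51 members with TMM-scaled CPM, 63 with group medians, 8 with a limit of 1 CPM on the sorted means, 2 with a limit of 5 CPM, 57 without the liver limit and 61 when the spleen had to reach 2 times the whole blood mean. Leaving out a spleen kept 82 to 87. As alternatives chosen after seeing the data, keeping only transcripts with a smallest value under 3 estimated counts or only those above 0 in all 5 spleens kept 75 and 81. In those lists 1 and 2 transcripts, against 8, had a spleen mean over 2 times the highest sorted mean. With TMM scaling the summed spleen level of the 100 members themselves was 159.5 CPM, and that of the list chosen with TMM-scaled CPM was 177.3 CPM.

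In the livers, APAP against Ctrl called 9 members, 16 with library totals alone and 24 with limma (19 higher), and 7 to 10 with a liver left out. Over all transcripts, library totals called 8976 and limma 9435, against 5801. MDA against Ctrl called 3 members, but 1 with a filter of 0.5 CPM, with only the 2 groups in the fit, or with the replicate block, and 1 to 4 with a liver left out. Over all transcripts that comparison called 2959, against 6449 with library totals and 6799 with limma. APAP against MDA called 10, 17 with limma, 5 with the 0.5 CPM filter and 8 to 11 with a liver left out.

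In the sorted cells no alternative moved a total (both directions) by over 1.5 times. By direction, members higher in monocytes went from 5 to 2 with DESeq2 or the replicate block and to 3 without replicate 2, 3 or 5, and those higher in neutrophils from 6 to 3 with the block. Members lower in the splenic types went from 5 to 2 without replicate 1 or with library totals, and to 3 with DESeq2. With a replicate left out the counts were 56 to 63 (splenic against blood), 30 to 38 (B), 25 to 33 (CD4 T), 23 to 29 (CD8 T), 27 to 33 (NK), 38 to 44 (monocytes) and 33 to 41 (neutrophils). In CD4 T cells S1 did not pass the filter without replicate 5. The other leaders carried by 1 sample reversed when that sample was left out, with fitted log2 differences (lowest to highest over the replicates left out) that are no bounds. In B cells they were -1.37 to 5.7 for S48 and -1.37 to 6.87 for S10 (lowest without replicates 1 and 6), and in CD4 T cells -2.99 to 5.98 for S26 (replicate 4). In NK cells they were -1.35 to 6.1 for S22 (replicate 3), -1.37 to 6.84 for S10 and -1.33 to 6.02 for S76 (both replicate 5), and without the 3 replicate 5 libraries alone -1.32 for S10 and -1.27 for S76. In monocytes they were -1.2 to 6.44 for S16 (replicate 3), -3.0 to 6.86 for S48 (replicate 4) and -3.01 to 5.83 for S26 (replicate 5), and in neutrophils -1.37 to 6.31 for S48 (replicate 1), -2.65 to 6.77 for S22 and -2.94 to 6.14 for S26 (both replicate 2).

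Replicate numbers did not meet the criterion for pairing, a correlation above 0.1 in every same-numbered pair. Same-numbered livers correlated above 0.1 in 3 of 15 pairs, splenic sorted samples in 19 of 36 and blood sorted samples in 1 of 6, and 3 livers and 15 of the 24 splenic samples correlated best with their own number. In the splenic samples the median correlation was 0.154 for the same number and -0.0231 for other numbers, a hint only from the data. With the replicate block the calls were 9 (APAP), 1 (MDA), 9 (APAP against MDA), 61 (splenic against blood), 38 (B), 32 (CD4 T), 30 (CD8 T), 30 (NK), 44 (monocytes) and 35 (neutrophils). Under the block calls were lost (edgeR adjusted p) by S91 (0.0553; log2 difference 1.61) and S56 (0.0936) after MDA, S38 after APAP (0.0584) and S73 between treatments (0.0699). The part of depth in the members at 0 in some spleens was not tested.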

Other observations

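Transcripts well above the sorted cells existed outside the list. Of the 13940 transcripts with a spleen mean of at least 1 CPM, 28 had a spleen mean at least 2 times the highest sorted mean, and 8 of these were members. Of the other 20, 6 had a sorted mean at or above the limit of 2 CPM. The 5 most abundant had spleen means of 184.0, 152.6, 143.8, 103.8 and 68.05 CPM, against highest sorted means of 91.74, 67.22, 52.08, 35.95 and 20.78 CPM. The 100 members together held 189.3 CPM. The 5 were chosen after their values were seen and carry no test.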
